A study of Mus musculus with 6 samples.

Results

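The genes described here encode factors that cut transfer RNA (tRNA), restrain that cutting, or place and remove the chemical marks that bear on it. They are 9 genes, taken by symbol from an expression table of 53656 gene symbols, and all 9 had a row in it: Rnh1, Ang, Elac2, Nsun2, Trdmt1, Trmt6, Trmt61a, Alkbh1 and Alkbh3. Oocyte RNA of mice was sequenced in 6 libraries, 3 from wild-type mice (WT) and 3 from mice lacking Khdc3 (KO), a gene whose protein belongs to the subcortical maternal complex of the egg. The sources used here give neither strain, age and allele nor the number of animals, so each p-value reflects the spread among these 6 libraries alone, which may be technical. Levels are RPKM, that is reads scaled by gene length and library depth, so that genes of different length can be compared.

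Angiogenin, encoded by Ang, is a secreted ribonuclease of the RNase A family that cuts mature tRNAs in the anticodon loop during stress, and the resulting tRNA fragments are known as small RNAs with functions of their own. Rnh1, the ribonuclease inhibitor, is a leucine-rich repeat protein of the cytosol that binds enzymes of this family, angiogenin included, and blocks them. Nsun2 and Trdmt1 (also known as Dnmt2) methylate cytosines of tRNA, and tRNAs lacking these marks are cut more readily in mice. Trmt6 and Trmt61a together form the enzyme that methylates adenosine to 1-methyladenosine in the tRNA body, and Alkbh1 and Alkbh3 are dioxygenases reported, in human cells, to remove that mark. Elac2 is the ribonuclease that trims the trailing end of precursor tRNAs in the nucleus and in mitochondria. The libraries report the mRNAs of these factors. tRNAs and their fragments were not analysed here.

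RefSeq (GRCm38.p6) start-site windows were found for 8 of the 9 genes, in 10 windows, 3 of them for Rnh1. No window was found for Trmt6. The 250 bases before the start are shown for Elac2, the member with the highest level, for Ang, the member with the lowest, and for the most upstream of the 3 Rnh1 starts, with every CG pair in capitals. The windows, read 5′ to 3′ along the gene's strand, are chr11:64978785-64979034 (plus strand) for Elac2, chr7:141172852-141173101 (minus strand) for Rnh1 and chr14:51090827-51091076 (plus strand) for Ang.
Elac2: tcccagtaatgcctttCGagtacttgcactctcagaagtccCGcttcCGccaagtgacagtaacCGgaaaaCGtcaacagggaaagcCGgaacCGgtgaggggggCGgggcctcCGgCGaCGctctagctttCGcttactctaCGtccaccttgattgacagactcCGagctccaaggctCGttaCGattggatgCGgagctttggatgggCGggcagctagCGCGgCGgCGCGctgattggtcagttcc
Rnh1: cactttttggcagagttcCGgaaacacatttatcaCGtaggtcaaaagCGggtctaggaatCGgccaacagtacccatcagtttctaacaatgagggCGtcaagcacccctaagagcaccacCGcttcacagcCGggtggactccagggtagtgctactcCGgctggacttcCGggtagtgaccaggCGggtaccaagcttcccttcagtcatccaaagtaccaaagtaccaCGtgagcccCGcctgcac
Ang: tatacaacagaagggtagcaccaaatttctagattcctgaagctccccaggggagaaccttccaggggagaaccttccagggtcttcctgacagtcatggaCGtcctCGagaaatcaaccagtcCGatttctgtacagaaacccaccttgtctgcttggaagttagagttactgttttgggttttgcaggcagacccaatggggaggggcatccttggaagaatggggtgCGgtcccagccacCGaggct

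The Elac2 stretch holds 23 CG pairs, the Rnh1 stretch 12 and the Ang stretch 5. A CG pair reads the same on both strands, and 92.1% of 32817 RefSeq windows of this length hold at least 1, with a median of 6. The other 2 Rnh1 starts lie within the gene and hold 5 and 10. Nsun2 holds 17, Trdmt1 9, Alkbh1 18, Alkbh3 15 and Trmt61a 24. The Nsun2 window, chr13:69611766-69612015, also lies within its gene, which begins at 69533746 in the annotation used here. Each of the genes with a window, other than Ang, therefore has at least 1 start above that median, while the Ang window lies under it. RefSeq lists the same window for Rnase4, which encodes another ribonuclease of the RNase A family, so Ang and Rnase4 share this start. Rnase4 has a further window, chr14:51095750-51095999 with 2 CG pairs, that is not listed for Ang.

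The libraries held 34640170 to 43343444 reads, as recovered from the RPKM values. Khdc3 ranged from 423 to 502 RPKM in WT and from 0.113 to 0.224 in KO, matching the genotype labels in all 6 libraries. The first principal component (49.5% of the variance) set the WT libraries (-18.7 to -14.9) apart from the KO libraries (14.8 to 18.8). On the second principal component (18.1% of the variance) KO replicate 1 was set off from KO replicates 2 and 3, at 18.9 against -9.49 and -10.6. Oocyte markers summed to 11788 to 12726 RPKM in WT and 11445 to 11816 RPKM in KO. Markers of granulosa and cumulus cells summed to 136 to 257 RPKM in WT and 301 to 408 RPKM in KO, none of them at 0 in any library, and those of stroma and smooth muscle to 23.7 to 32.3 and 31.7 to 42.4 RPKM. The mean was higher in KO for 12 of 12 granulosa markers, 9 of 10 stromal markers, 5 of 5 leukocyte, 5 of 6 theca and luteal, 3 of 5 endothelial, 1 of 4 erythroid and 1 of 10 oocyte markers. Of these, 1 granulosa and 1 stromal marker were called, both higher in KO (limma). The defining leukocyte markers Ptprc and Adgre1 and the endothelial marker Cdh5 were listed at 0 in at least 1 library.

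Rnh1 was the member that rose in KO oocytes. It measured 3.76, 3.49 and 3.51 RPKM in WT replicates 1, 2 and 3, and 5.96, 6.87 and 6.20 RPKM in KO replicates 1, 2 and 3. Every KO library lay above every WT library, with a gap between the groups wider than the spread within either. The mean was 3.59 ± 0.151 RPKM in WT and 6.34 ± 0.472 in KO (SD, n = 3 each), a ratio of 1.77. In log2(RPKM + 1), where changes of low genes come out too small, the rise was 0.68 ± 0.09 (SE; limma, adjusted p = 0.0084), with a 95% interval of 0.47 to 0.88. Its p ranked 89 among 12272 tested genes, those at 1 RPKM or more in at least 3 libraries. Of all tested genes, 2.74% were called at an adjusted p of 0.05, 1.6% as higher and 1.14% as lower in KO. Of the 8 members tested, 1 was called. It kept its call in each of 17 fits, including those without any single library, with an adjusted p of up to 0.041. In bulk RNA, more cells of a type and more RNA per cell cannot be told apart. The summed granulosa and leukocyte markers also lay higher in every KO than in any WT library, leukocyte sums at 6.03 to 7.49 against 2.62 to 5.01 RPKM. The sums of the stromal and of the theca and luteal markers overlapped between the genotypes, though most of these markers had higher means in KO. The part of these cell types in the Rnh1 difference was not tested.

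**Figure D1:**
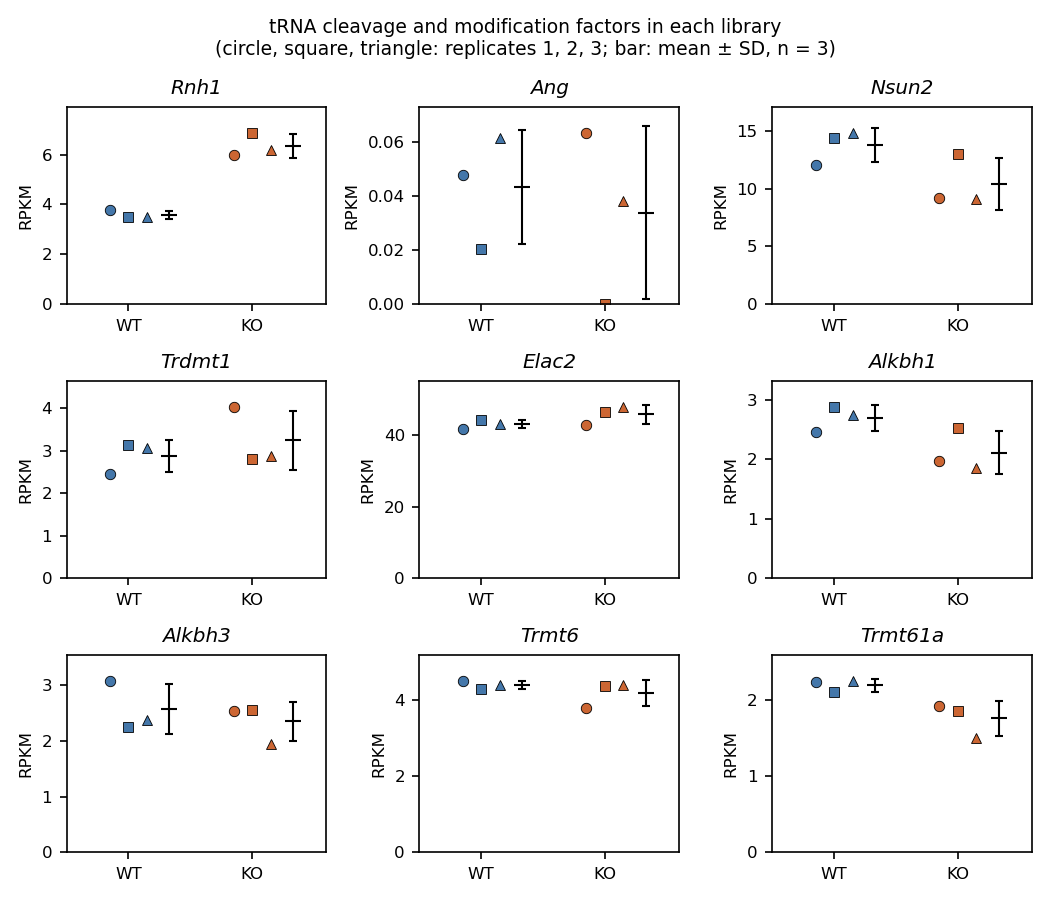
RPKM (y axis, linear, from 0) of each of the 9 genes in the 6 libraries. Circles, squares and triangles are replicates 1, 2 and 3, and bars give the mean ± SD (n = 3 each). Rnh1 is at 3.49 to 3.76 RPKM in WT and 5.96 to 6.87 RPKM in KO, Trmt61a at 2.09 to 2.25 and 1.50 to 1.92 RPKM, and the groups overlap for the other 7 genes.

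Rnh1 lies on chromosome 7 (141160326 to 141172857, minus strand, GRCm38, protein coding, ENSMUSG00000038650.15), and no other gene in the annotation shares its exons. It was read 338, 368 and 368 times in WT replicates 1, 2 and 3 and 607, 720 and 697 times in KO replicates 1, 2 and 3. The spread between libraries of a genotype was 4.2% of the mean in WT and 7.44% in KO, where counting error alone would give 5.29% and 3.85%. Rnh1 stood at the level where 33.4% of tested genes were lower in WT.

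The genes beside Rnh1 did not pass the test. Ptdss2, which encodes a phosphatidylserine synthase and ends 2.72 kb from Rnh1, averaged 5.80 ± 0.393 RPKM over the WT and 5.66 ± 0.543 over the KO libraries (SD, n = 3 each). On the other side, 16.2 kb away, Hras, a small GTPase, stood at 24.1 ± 0.997 and 23.5 ± 2.28 RPKM. The 3 tested genes on either side of Rnh1 (Ifitm3, Ifitm6 and Ptdss2, then Hras, Rassf7 and Phrf1) had log2 changes of -0.04 to 0.20, with adjusted p of 0.34 to 0.89 (limma). In all 6 the WT and KO values overlapped. The direction of Ifitm6, Ptdss2, Hras and Rassf7 turned in some fits without 1 library, and that of Ptdss2 also with library weights.

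**Figure D2:**
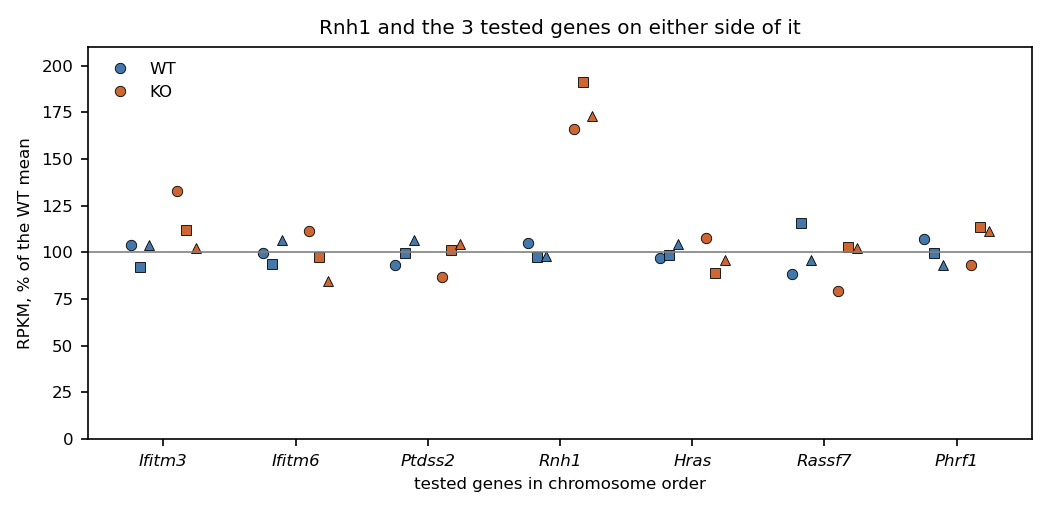
RPKM as a percentage of each gene's WT mean (y axis, from 0) for Rnh1 and the 3 tested genes on either side, in chromosome order, not to scale along the chromosome. Each marker is 1 library (circle, square and triangle are replicates 1, 2 and 3). The KO libraries stand clear of the WT libraries for Rnh1, whose KO mean is 177% of the WT mean, and the groups overlap for the 6 neighbours.

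Predicted genes, clone-named genes and pseudogenes left aside, the tested genes whose log2(RPKM + 1) followed that of Rnh1 most closely across the 6 libraries were Sestd1 (Pearson r = 0.997), Ptk2b, which encodes a tyrosine kinase (r = 0.996), and Gnb1, a G protein beta subunit (r = 0.995). This is a description over 6 libraries that share the genotype difference, and 123 of the 10060 genes compared had an r above 0.95. Sestd1 rose from 6.57 ± 0.248 to 11.1 ± 0.419 RPKM and Gnb1 from 17.9 ± 0.226 to 40.4 ± 2.30 RPKM (SD, n = 3 each), both called (limma, adjusted p = 0.0040 and 1.3e-04). Ptk2b was at 0.662 ± 0.0347 and 1.10 ± 0.0540 RPKM and missed the threshold (adjusted p = 0.13). It reached 1 RPKM in 3 libraries, all of them KO, and so entered the test through the group where it was higher. These 3 genes were picked for following Rnh1 across the genotypes, so their calls do not bear on Rnh1.

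Ang, the ribonuclease that Rnh1 restrains, was at the limit of detection in both genotypes. It stood at 0.0480, 0.0205 and 0.0618 RPKM in WT replicates 1, 2 and 3 and at 0.0636, 0 and 0.0384 RPKM in KO replicates 1, 2 and 3. These levels correspond to 2, 1 and 3 reads in WT and to 3, 0 and 2 reads in KO, so that no library held more than 3 reads, the number that a count of 0 still allows. A count of 3 reads corresponds to 0.0576 to 0.0721 RPKM in these libraries. No fold change is given and Ang was not tested. A difference between the genotypes was not detectable at this depth, and intervals on such counts cover counting error only. Ang lies on chromosome 14 (51091150 to 51102009, plus strand, GRCm38) and shares 219 of its 1202 exon bases with Rnase4 on the same strand, so reads there may not be assigned to it with certainty.

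Rnase4, which shares the start shown above and was singled out after its values were seen, was read 34 to 58 times in WT and 26 to 107 times in KO. Its values were 1.02, 0.511 and 0.635 RPKM in WT replicates 1, 2 and 3 and 0.405, 1.62 and 0.437 RPKM in KO replicates 1, 2 and 3. The highest and the lowest library were both KO, and the gene fell under the filter. Of 15 other RNase A family genes in the table, 2 were tested and 3 were listed at 0 in all libraries. These 2 were Rnase6 (2.57 ± 0.0822 RPKM in WT, 2.51 ± 0.436 in KO) and Rnase1 (3.63 ± 1.05 and 3.49 ± 1.03 RPKM; SD, n = 3 each), with adjusted p of 0.91 and 0.93 (limma). Among the 3 tested genes on either side of Ang, 21.9 to 783 kb away, log2 changes were -0.04 to 0.32. None passed (limma, lowest adjusted p 0.19, for Pnp, a purine nucleoside phosphorylase). Every KO value lay above every WT value for Pnp (3.49 to 4.45 against 2.65 to 3.39 RPKM) and Mettl17 (2.89 to 3.32 against 2.21 to 2.62 RPKM). Groups were apart in this direction for 13.5% of all tested genes, and they overlapped for the other neighbours of Ang.

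Elac2, the trailer-trimming ribonuclease, was the most abundant member. It stood at 41.8, 44.0 and 43.1 RPKM in WT replicates 1, 2 and 3 and at 42.8, 46.4 and 47.9 RPKM in KO replicates 1, 2 and 3, so that KO replicate 1 lay within the WT range and the other KO libraries above it. The change of 0.09 ± 0.07 (SE, log2 scale) missed the threshold (limma, adjusted p = 0.52), and its 95% interval of -0.07 to 0.24 excluded a change as large as that of Rnh1. The change was 0.13 without KO replicate 1 and 0.05 without KO replicate 3. At 5033 to 7216 reads per library, this was the member with the smallest counting error, and 88.1% of tested genes were lower in WT. Elac2 lies on chromosome 11 (64979038 to 65002069, plus strand) and shares 31 of its 3479 exon bases with Arhgap44 on the opposite strand.

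The cytosine methyltransferases did not pass the test. Nsun2 (chromosome 13, 69533746 to 69635780, plus strand) stood at 12.0, 14.4 and 14.8 RPKM in WT replicates 1, 2 and 3 and at 9.15, 13.0 and 9.10 RPKM in KO replicates 1, 2 and 3. KO replicates 1 and 3 lay below all WT libraries, and KO replicate 2 lay within their range. The log2 change of -0.38 ± 0.14 (SE) was the most negative of the members and missed the threshold (limma, adjusted p = 0.21; 95% interval -0.71 to -0.05, before adjustment). The spread in KO was 21.5% of the mean, against 2.02% from counting alone. Of its 5737 exon bases, 469 are shared with Gm17108 and 165 with Tent4a, both on the opposite strand, and the sources used here do not say whether strand was used in counting.

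Trdmt1 (chromosome 2, 13509014 to 13544668, minus strand) stood at 2.45, 3.13 and 3.06 RPKM in WT replicates 1, 2 and 3 and at 4.04, 2.81 and 2.88 RPKM in KO replicates 1, 2 and 3. KO replicate 1, which stood apart on the second principal component, was the highest of the 6, and the other KO libraries lay within the WT range. The log2 change was 0.12 ± 0.14 (SE; limma, adjusted p = 0.67) and turned to -0.0079 without KO replicate 1.

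The 1-methyladenosine writer showed lower Trmt61a values in KO without a call. Trmt61a, the catalytic subunit (chromosome 12, 111678105 to 111683902, plus strand), stood at 2.23, 2.09 and 2.25 RPKM in WT replicates 1, 2 and 3 and at 1.92, 1.85 and 1.50 RPKM in KO replicates 1, 2 and 3. The highest KO value was under the lowest WT value. Groups were separated in this way, lower in KO, for 12.2% of all tested genes, and for 25.8% in either direction, against 2 of the 8 tested members, Rnh1 and Trmt61a. The log2 change of -0.21 ± 0.10 (SE) missed the threshold (limma, adjusted p = 0.31; 95% interval -0.45 to 0.02). Trmt61a rested on 158 to 221 reads per library, the fewest among the tested members.

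Trmt6, the partner subunit (chromosome 2, 132804207 to 132816055, minus strand), stood at 4.49, 4.27 and 4.37 RPKM in WT replicates 1, 2 and 3 and at 3.79, 4.37 and 4.39 RPKM in KO replicates 1, 2 and 3. KO replicate 1 was the lowest library, and the other KO values lay within the WT range (log2 change -0.06 ± 0.09, SE; limma, adjusted p = 0.78). Without KO replicate 1 the log2 change was -0.000531. Within a library, the level of Trmt6 was 2.01, 2.04 and 1.95 times that of Trmt61a in WT replicates 1, 2 and 3 and 1.98, 2.36 and 2.93 times in KO replicates 1, 2 and 3. The ratio of the mRNAs thus varied little over the WT libraries and more in KO, with KO replicate 1 inside the WT range. In WT the spread of each gene was under its counting error (Trmt61a 3.84% against 6.98%, Trmt6 2.50% against 3.32%). A constant ratio can therefore not be read from the WT libraries, and the difference in spread between the genotypes was not tested. The log2 ratio differed by 0.26 between the genotypes, at 1.00 ± 0.04 in WT and 1.26 ± 0.28 in KO (SD, n = 3 each; exact two-sided permutation p = 0.3, where 0.1 is the smallest p that 3 libraries against 3 allow). The difference was 0.39 without KO replicate 1 and 0.11 without KO replicate 3, with exact permutation p of 0.1 and 0.4. With 1 library left out, 0.1 is again the smallest p possible.

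The demethylases did not pass the test either. Alkbh1 (chromosome 12, 87425840 to 87444017, minus strand) stood at 2.46, 2.88 and 2.74 RPKM in WT replicates 1, 2 and 3 and at 1.96, 2.52 and 1.85 RPKM in KO replicates 1, 2 and 3. KO replicate 2 overlapped the WT range, as it did for Nsun2, and the other KO libraries lay below it. The log2 change was -0.25 ± 0.11 (SE; limma, adjusted p = 0.28), and 122 of 6574 exon bases are shared with Slirp on the opposite strand. Alkbh3 (chromosome 2, 93980550 to 94010807, minus strand) stood at 3.08, 2.24 and 2.38 RPKM in WT replicates 1, 2 and 3 and at 2.54, 2.56 and 1.94 RPKM in KO replicates 1, 2 and 3. The ranges crossed, and the log2 change of -0.09 ± 0.13 (SE; limma, adjusted p = 0.75) turned positive, to 0.01 and 0.000565, without WT replicate 1 and without KO replicate 3. Alkbh3 shares 172 of its 3159 exon bases with Gm27027 on the same strand and 85 with Alkbh3os1 on the opposite strand.

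**Figure D3:**
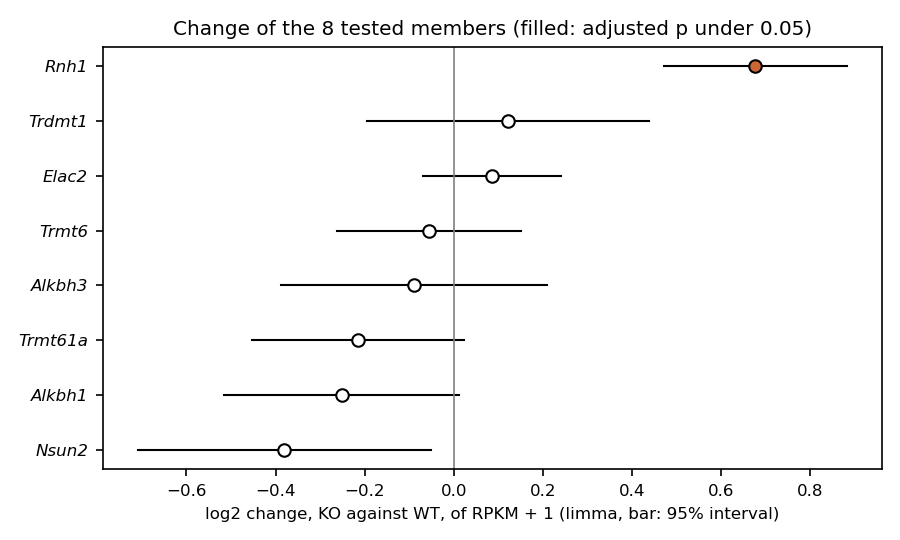
Change of the 8 tested members between KO and WT on the log2(RPKM + 1) scale (x axis), with bars for the 95% interval of the limma fit. The interval of Rnh1 runs from 0.47 to 0.88, and Rnh1 alone is filled, as the 1 member called at an adjusted p of 0.05.

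In order of WT level, per length, the members ran from Elac2 (43.0 RPKM) through Nsun2 (13.7), Trmt6 (4.38), Rnh1 (3.59), Trdmt1 (2.88), Alkbh1 (2.69), Alkbh3 (2.57) and Trmt61a (2.19) to Ang (0.0434). The WT ranges of neighbours in this order were apart, except between Trdmt1 and Alkbh1, Alkbh1 and Alkbh3, and Alkbh3 and Trmt61a, which overlapped. In KO, Rnh1 stood above Trmt6 with ranges apart, the reverse of their order in WT. Over the 8 tested members 3 changes were positive and 5 negative, with a median log2 change of -0.07, against a median of 0.01 over all tested genes. At an unadjusted p of 0.05, 2 members passed, Rnh1 and Nsun2, where 19.0% of all tested genes did.

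Another 126 genes of tRNA biology and of the RNase A family, from 134 listed, had a row. Of these, 97 were tested and none was called, against 2.74% of all tested genes (limma, adjusted p). At an unadjusted p of 0.05, 20 of the 97 passed, where 19.0% of all tested genes did. In the alternative fits 1 gene, Mettl8, was called with voom on the recovered reads and with library weights. Mettl8, a methyltransferase of mitochondrial tRNA, averaged 8.03 ± 0.909 RPKM over the WT and 5.72 ± 0.293 over the KO libraries (SD, n = 3 each). Its log2 change was -0.42 ± 0.10 (SE), with an adjusted p of 0.072 by limma and 0.041 with voom. Of the 97 changes 41 were positive and 56 negative, with a median of -0.03. The groups were apart for 9 genes higher and 16 lower in KO, against 13.5% and 12.2% of all tested genes.

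**Figure D4:**
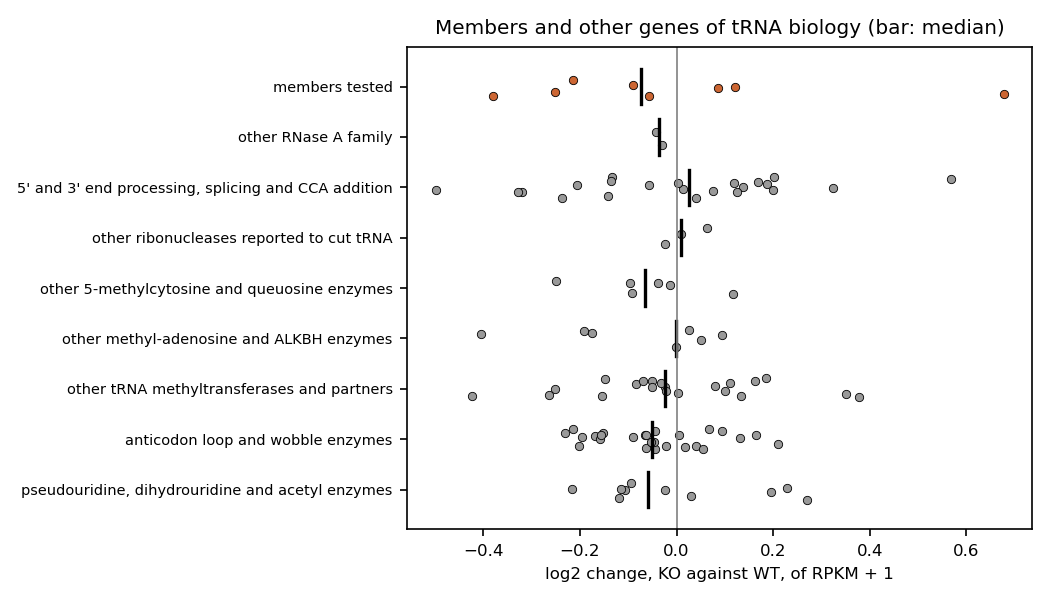
Change between KO and WT on the log2(RPKM + 1) scale (x axis) of the tested members and of the tested genes in 8 other lists (rows). Each point is 1 gene and each bar a median. Rnh1, at 0.68, lies to the right of every other point, and the medians of the other lists lie between -0.06 and 0.03.

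By role, no factor that makes the ends of tRNA passed. Rpp14, a subunit of RNase P, the enzyme that trims the leading end, had the smallest p of the 22 tested genes for end processing, splicing and CCA addition, at 16.8 ± 3.34 RPKM over the WT and 11.5 ± 0.713 over the KO libraries (SD, n = 3 each; limma, adjusted p = 0.091). The RNase P subunit Pop1 (log2 change -0.32) and the splicing factors Tsen34 (0.57), the nuclease subunit, and Clp1 (0.32), an RNA kinase, missed the threshold as well, with adjusted p of 0.11 to 0.13. Ssb, the La protein that binds the tails of precursor tRNAs, was at 297 ± 12.9 and 341 ± 20.4 RPKM (adjusted p = 0.17). Pop1, Tsen34, Clp1 and Ssb were singled out after their values were seen. Among 3 tested ribonucleases reported to cut tRNA, Rnaset2a, a lysosomal ribonuclease of the T2 type, had the smallest p, at 75.1 ± 9.53 and 78.8 ± 12.8 RPKM (adjusted p = 0.83).

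Among the modification enzymes, none was called by limma on log2(RPKM + 1). Qtrtd1, now named Qtrt2, a subunit of the enzyme that inserts queuine into tRNA, was at 11.5 ± 0.678 RPKM over the WT and 9.51 ± 0.425 over the KO libraries (SD, n = 3 each; limma, adjusted p = 0.15), the smallest p of 6 genes for other cytosine methylation and queuosine. Alkbh2, a DNA repair dioxygenase of the Alkbh1 and Alkbh3 family, was at 27.5 ± 6.54 and 20.3 ± 2.93 RPKM (adjusted p = 0.26; 7 genes tested). The smallest p of 26 anticodon loop and wobble enzymes was that of Cdk5rap1, which acts on mitochondrial tRNAs, at 14.0 ± 1.02 and 11.9 ± 0.565 RPKM (adjusted p = 0.21). Nat10, an RNA acetyltransferase, was at 11.4 ± 0.834 and 14.0 ± 1.78 RPKM (adjusted p = 0.22), the smallest p of 10 pseudouridine, dihydrouridine and acetyl enzymes. Of 21 tested methyltransferases and partners, Mettl8 had the smallest p. The tRNA methyltransferases Trmt13 and Trmt2a, singled out after their values were seen, had log2 changes of 0.35 and -0.25 (adjusted p = 0.13 for each).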

How the data were processed

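RNA of 6 oocyte libraries (3 WT, 3 KO) was compared, and libraries were assigned by title. The oocytes came from hand-dissected ovaries, and a PicoPure kit and a strand-keeping NEB kit served for RNA and libraries, per the labels' protocols. The tools named are STAR 2.6.0c, featureCounts 1.6.2 and FastQC 0.11.7, and the build is GRCm38.p6, per the submitters' processing notes. The authors deposited RPKM values for 53656 symbols. With exon-union lengths of GENCODE M21 (28447 symbols matched), the values came out as whole reads in every library (tolerance 0.01) for 92.4% of the 19630 matched genes that had any, the 9 members among them.

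The test was limma 3.58.1 (R 4.3.3) on log2(RPKM + 1) (trended prior, genotype as the only covariate) for genes at 1 RPKM or more in at least 3 of 6 libraries, with Benjamini-Hochberg adjustment over 12272 genes and a threshold of 0.05. Every tested member was at or above 1 RPKM in all 6 libraries. The fit was tested on simulated data. The log2 ratio of Trmt6 to Trmt61a was tested by exact two-sided permutation (Python 3.11.15), and single genes only by limma. The alternatives were other pseudocounts, filters, scalings, priors and weights, the replicate number as a block, each library left out, and voom on the recovered reads. Libraries of a genotype differed by more than counting noise (chi-square per degree of freedom of 17.5 or more).

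The members and lists were chosen with earlier results of these data known. Named genes are the members, in each list any called gene and the gene with the smallest p, the 3 tested neighbours on either side of Rnh1 and Ang, and the 3 genes most like Rnh1, with predicted genes, clone-named genes and pseudogenes skipped among these last. Rnase4, Pop1, Tsen34, Clp1, Ssb, Trmt13 and Trmt2a fall outside this rule and were chosen after their values were seen. Some symbols on the lists had no row in the table and were not used here. The tests fitted the unit assumed beforehand, and the labels name no batch.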

Additional observations from a re-analysis of the deposited data

How the results depend on the processing

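Rnh1 kept its direction and its call in all 17 fits, with log2 changes of 0.63 to 0.82 and adjusted p of 0.0032 to 0.041 (limma), the highest without WT replicate 2. It was the 1 member called in each of them. The count of called genes, 336, was 94 with no filter on low values, 222 with a filter of RPKM 5, 662 with library weights and 151 to 289 with 1 library left out (195 and 161 without WT replicates 2 and 3, 152 and 151 without KO replicates 2 and 3). It stayed within 1.5 times of 336 under the other alternatives. The count of called genes among the other tRNA genes, 0, was 1 with library weights and 1 with voom, Mettl8 in both (adjusted p = 0.0496 and 0.041). The log2 ratio of Trmt6 to Trmt61a kept its sign throughout, at 0.11 to 0.39 with 1 library left out and 0.16 with a pseudocount of 1. Of the alternatives for single genes, 24 turned the sign of a change and 3 added a call, and in 547 neither direction nor call changed. The sign turned only for genes that were not called. With 1 library left out, log2 changes ran from -0.00787 to 0.19 for Trdmt1, -0.15 to 0.0104 for Alkbh3, -0.13 to 0.0410 for Rnase6, -0.0441 to 0.19 for Rnaset2a, -0.14 to 0.0594 for Ifitm6, -0.0751 to 0.0373 for Ptdss2, -0.11 to 0.0255 for Hras, -0.0819 to 0.0204 for Rassf7, -0.0368 to 0.0923 for Osgep, -0.0116 to 0.0902 for Apex1 and -0.22 to 0.12 for Rnase1. Under other alternatives the change was 0.0221 for Ptdss2 with library weights, -0.0276 for Osgep with quantile normalization, -0.0225 for Osgep with library weights and 0.0653 for Rnase1 with library weights. The cause was not tested.

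Correlations of same-numbered WT and KO libraries, as deviations from the group means, were -0.016, 0.21 and -0.034. Those of differently numbered libraries ran from -0.15 to 0.15, so the highest of all was that of WT and KO replicate 2. With 3 libraries per genotype, such correlations cannot show whether the numbers mark libraries that belong together, and pairing was not settled. With the replicate number as a block, 320 genes and Rnh1 (adjusted p = 0.029) were called, and the Trmt6 to Trmt61a difference was 0.26 (exact sign-flip p = 0.5). Depth limits Ang, with 0 to 3 reads per library, and Trmt61a, with 158 to 221.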
